A study of Mus musculus with 2 samples.

Results

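Metallothioneins are small, cysteine-rich proteins that bind zinc and copper in the cytosol, and cells raise them when free metal, oxidants or glucocorticoids increase. The transcription factor MTF1 senses free zinc and binds short promoter sequences called metal response elements. When zinc is in excess, MTF1 is known to raise the metallothionein genes and the zinc exporter gene Slc30a1 and to hold the importer gene Slc39a10 down. Zinc transporters fall into the ZnT family (Slc30a genes), which moves zinc out of the cytosol, and the ZIP family (Slc39a genes), which moves it in.

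The genes described here are Mt1, Mt2, Mtf1, Slc30a1, Slc39a10, Slc39a14 and Slc39a6. They were picked by symbol, with earlier results of these data known, and 7 of 7 were found among the 14197 genes of the table. The data came from RNA-sequencing of 4T1 cells, a murine mammary carcinoma line labelled as wild type in both groups. The study asked what AS (astragalin, a plant flavonoid) does to these cells, and 1 library was treated with 20 μM AS and 1 with the vehicle, each for 24 h. There are no replicates, so none of the differences has a replicate check and no p-value is given. Levels are RPKM, in which the reads of a gene are divided by its exon length in kilobases and by the size of the library. The libraries held 44909683 reads with AS and 50820728 with the vehicle. Intervals are exact 95% intervals of the reads and cover counting error only, since reads without molecular identifiers are not independent molecules. Of 8 markers of mammary epithelium, 8 were listed, at 13.4 to 902 RPKM, while none of 3 endothelial markers was listed. Of 6 leukocyte markers 4 were listed, among them Ptprc at 0.116 RPKM with AS and 0.114 with the vehicle and Cd68 at 24.0 and 28.1 RPKM. Of 4 fibroblast markers 3 were listed, at no more than 4.24 RPKM.

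Promoter windows of the 3 genes with the highest AS-to-vehicle ratios among these 7 are shown first, with the letters to which MTF1 is known to bind marked. These 3 genes were chosen by their ratios, and whether MTF1 acted on them was not tested. RefSeq windows (GRCm38.p6) from 250 bases before to 50 bases after a RefSeq gene start were found for 5 of the 7 genes, and Slc39a14 and Slc39a6 were not matched. The RefSeq start lies 7 bases from the GENCODE gene start used below for Mt1, 46 for Mt2, 14 for Slc30a1 and 445 for Mtf1. The 2 windows of Slc39a10 lie 32.9 kb and 39.2 kb from its GENCODE start, so the sequence at that start was not searched. The windows were searched on both strands for the metal response element, as TGCACNC or TGCGCNC, and for the antioxidant response element, as TGACNNNGC. The sequences read 5′ to 3′ on the strand of the gene, with the matches in capitals. They are Mt1 at chr8:94178839-94179138, Mt2 at chr8:94172368-94172667 and Slc30a1 at chr1:191906531-191906830, all on the plus strand.

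Mt1: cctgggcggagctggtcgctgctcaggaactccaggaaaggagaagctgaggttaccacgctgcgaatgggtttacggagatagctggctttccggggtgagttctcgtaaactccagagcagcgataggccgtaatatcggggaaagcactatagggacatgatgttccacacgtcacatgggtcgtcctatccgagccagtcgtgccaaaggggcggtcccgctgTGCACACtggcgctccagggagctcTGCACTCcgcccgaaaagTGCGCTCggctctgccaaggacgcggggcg
Mt2: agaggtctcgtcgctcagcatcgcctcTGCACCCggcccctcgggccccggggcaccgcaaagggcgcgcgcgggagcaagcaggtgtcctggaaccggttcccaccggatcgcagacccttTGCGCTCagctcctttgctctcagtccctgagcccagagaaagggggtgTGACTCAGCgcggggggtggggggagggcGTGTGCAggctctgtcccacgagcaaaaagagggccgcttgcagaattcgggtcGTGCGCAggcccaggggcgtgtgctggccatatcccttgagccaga
Slc30a1: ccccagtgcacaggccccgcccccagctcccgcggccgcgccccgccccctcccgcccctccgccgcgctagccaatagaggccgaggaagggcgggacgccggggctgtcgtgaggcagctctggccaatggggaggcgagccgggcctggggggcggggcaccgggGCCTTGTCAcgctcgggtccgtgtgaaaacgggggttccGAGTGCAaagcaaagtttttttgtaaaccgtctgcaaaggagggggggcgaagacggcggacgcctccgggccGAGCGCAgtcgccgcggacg

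The Mt2 window held 4 matches to the metal response element, the Mt1 window 3 and the Slc30a1 window 2. Of 32851 promoter windows of the same length, 25.7% held at least 1 such match, 7.11% at least 2, 1.97% at least 3 and 0.517% at least 4. In Mt1 the 3 matches lay between base -23 and base 27 of the RefSeq start used and all read in the sense direction. Mt1 has 3 annotated transcripts, and bases outside this window, at any other start of the gene, were not searched. In Mt2 the 4 matches were spread from base -223 to base 11, 2 in each direction. The antioxidant response element, the letters read by NRF2, was matched once in Mt2 (TGACTCAGC, bases -79 to -71) and once in Slc30a1 (bases -82 to -74, antisense), and 12.4% of all windows held it. No match overlapped another. The Mt1 window held no match to the antioxidant response element. The window of Mtf1 and the 2 windows of Slc39a10 held neither set of letters. In each case this says only that the letters are absent from the bases searched. A match is a description of letters and not of binding.

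Across the 7 genes, Slc30a1 had the highest ratio, Mt2 and Mt1 followed, and Slc39a10 was the only one with a large difference in the other direction. A log2 fold change here is that of AS over vehicle with 0.1 RPKM added to each level, and genes beyond a log2 fold change of 1 were called. Of all 14197 genes, 0.662% were called higher with AS and 0.31% lower. Of the 7 genes, 1 was called higher (Slc30a1) and 0 were called lower. At a lower threshold, a fold change of 1.5, 3 of the 7 were higher and 1 was lower, where 3.56% and 2.01% of all genes were. The median log2 fold change of the 7 genes was 0.39, and that of all genes was 0.07. The 4 genes past 1.5-fold were more than the table's share. The list was put together with earlier results of these data known, so this excess cannot be read as a result about these genes.

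**Figure D1:**
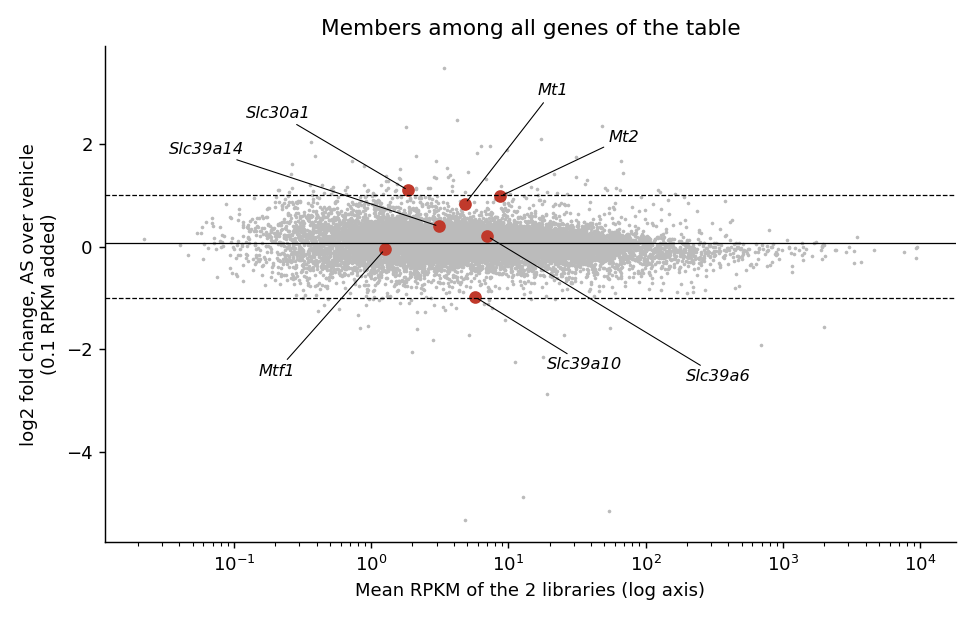
The log2 fold change of AS over vehicle (vertical axis, 0.1 RPKM added) is plotted against the mean RPKM of both libraries (horizontal log axis) for all 14197 genes, in grey, with the 7 genes in red. Dashed lines mark log2 fold changes of 1 and -1 and the solid line the median of all genes, 0.07. Slc30a1 lies just above the upper line, Mt2 and Mt1 just below it, and Slc39a10 at the lower line.

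The metallothionein genes were both higher with AS. Mt1 (ENSMUSG00000031765.8, chromosome 8 from 94179082 to 94180327, plus strand, GRCm38) encodes one of the metallothioneins that most tissues make. It had 348 reads and an RPKM of 6.22 with AS, against 218 reads and an RPKM of 3.44 with the vehicle. The AS library was 1.81-fold higher, with a counting interval from 1.52 to 2.15, and the log2 fold change was 0.83, rank 192 from the top of the table. Mt2 (ENSMUSG00000031762.7, chromosome 8 from 94172664 to 94173568, plus strand), its close relative, had 306 reads and an RPKM of 11.6 with AS. With the vehicle it had 174 reads and an RPKM of 5.82. The ratio was 1.99 with a counting interval from 1.65 to 2.41, and the log2 fold change of 0.98 ranked 103 from the top, just short of the threshold of 1. For each of these genes the counting intervals of the RPKM did not overlap between the libraries, and the share of all genes for which this holds was not computed.

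Taken as a pair, Mt1 and Mt2 held 14.6 RPM (RPKM without the division by length) with AS (interval 13.5 to 15.7) and 7.71 with the vehicle (6.97 to 8.52), a 1.89-fold difference with an interval from 1.66 to 2.15. The balance between them differed less than counting error could resolve. Mt2 made up 46.8% of the reads of the pair with AS (exact binomial interval 42.9% to 50.7%) and 44.4% with the vehicle (39.4% to 49.5%). Which of them was the more abundant depended on the length used. The deposited RPKM of Mt1 divides by 1246 exon bases, the union of 3 transcripts, and that of Mt2 by 588. Over the longest principal transcript of each gene, 549 bases for Mt1 and 511 for Mt2, the RPKM was 14.1 for Mt1 and 13.3 for Mt2 with AS, and 7.81 and 6.70 with the vehicle. The choice of length left the ratios between the libraries as they were. Mt3 and Mt4, the family members known from brain and from stratified epithelium, were not listed in the table.

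The value of Mt2 carries a limit of counting. On the opposite strand the annotation holds the antisense entry Gm45774, which covers 432 of the 588 exon bases of Mt2 (73.5%). Gm45774 was listed with 304 reads with AS and 172 with the vehicle, which is 2 fewer than Mt2 in each library. Whether strand was used in counting is not given in the sources used here, so reads of Mt2 and of Gm45774 cannot be told apart. Mt1 has no overlapping entry in the annotation, and none of its 50-base stretches was found in the transcripts of another gene.

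Mt2 and Mt1 lie next to each other, 5513 bases apart. Of the other genes whose start lay within 150 kb of that of Mt1, 5 besides Mt2 were listed. Leaving Gm45774 aside, Ogfod1 had a log2 fold change of 0.56, Bbs2 of 0.21, Nudt21 of 0.19 and Nup93 of -0.19. These 4 genes, which do not overlap Mt2, were thus all closer to the median of the table than Mt1 and Mt2 were.

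**Figure D2:**
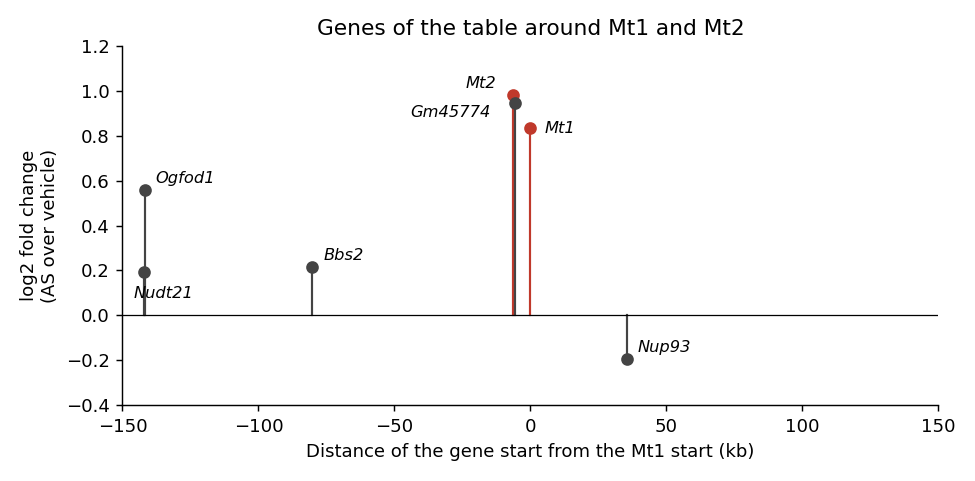
The log2 fold change of AS over vehicle (vertical axis, 0.1 RPKM added) is shown for each listed gene by the distance of its start from the start of Mt1 in kb (horizontal axis). Mt1 at 0.83 and Mt2 at 0.98, in red, stand with the antisense entry Gm45774 at 0.95, and the 4 other genes lie between -0.19 and 0.56.

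Slc30a1, the gene of ZnT1, the exporter that carries zinc across the plasma membrane, was the member that rose past the threshold. The gene (ENSMUSG00000037434.7) spans bases 191906767 to 191913247 of chromosome 1 (plus strand). It had 608 reads and an RPKM of 2.58 with AS, and 308 reads and an RPKM of 1.16 with the vehicle. The ratio was 2.23 with a counting interval from 1.94 to 2.57. The log2 fold change was 1.09, rank 69 of 14197 from the top, and with 1 RPKM added in place of 0.1 it was 0.73, below the threshold. An antisense entry, 1700034H15Rik, shares 468 of the 5244 exon bases of Slc30a1 and was listed with 130 and 68 reads, fewer than those of Slc30a1 by 478 and 240. Reads in the shared bases cannot be told apart for the same reason as in Mt2.

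None of the other listed ZnT genes passed 1.5-fold. Of the 10 genes of the family, 6 were listed. The 5 besides Slc30a1 had log2 fold changes from -0.26 to 0.37 with a median of 0.03. The most abundant in the vehicle library was Slc30a4 (ZnT4, of intracellular vesicles), at 16.0 RPKM in the AS library and 12.4 RPKM in the vehicle library, a log2 fold change of 0.37. Slc30a9 had 8.13 and 7.98 RPKM and Slc30a5 2.49 and 2.48 RPKM, so both were nearly level between the libraries. Slc30a2, Slc30a3, Slc30a8 and Slc30a10 were not listed.

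Among the listed importer genes, Slc39a10 was the one beyond 1.5-fold. Slc39a10 (ENSMUSG00000025986.6, chromosome 1 from 46807544 to 46892852, minus strand) encodes ZIP10, an importer of the plasma membrane. It had 1041 reads and an RPKM of 3.80 with AS, and 2353 reads and an RPKM of 7.60 with the vehicle. The AS library was 2.00-fold lower, with a counting interval from 1.86 to 2.15. The log2 fold change was -0.98, number 48 from the bottom of the table. It lay just inside the threshold with the authors' scaling and passed it at -1.05 when the median of all genes was set to 0.

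ZIP10 and ZIP6, the product of Slc39a6, are close relatives that are known to pair in 1 complex. Slc39a6 (ENSMUSG00000024270.11) had 1373 reads and an RPKM of 7.51 with AS, and 1348 reads and an RPKM of 6.51 with the vehicle. Its ratio was 1.15, with a counting interval from 1.07 to 1.24, and the log2 fold change of 0.20 was not past either threshold. Slc39a6 was thus not far from the median of all genes, 0.07. It ranked 4072 from the top, and 60.9% of all genes were higher with AS, while Slc39a10 was lower. Slc39a10 made up 63.6% of the reads of the pair with the vehicle (exact binomial interval 62.0% to 65.1%) and 43.1% with AS (41.1% to 45.1%). Per exon length, the ratio of Slc39a10 to Slc39a6 was 1.17 with the vehicle and 0.507 with AS.

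Slc39a14 (ENSMUSG00000022094.15, chromosome 14 from 70303469 to 70351425, minus strand) encodes ZIP14, which imports manganese and iron as well as zinc. It had 1695 reads and an RPKM of 3.58 with AS, and 1448 reads and an RPKM of 2.70 with the vehicle. The ratio of 1.32 had a counting interval from 1.23 to 1.42, and the log2 fold change was 0.39. It was thus higher with AS by more than counting error but by less than 1.5-fold.

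Of the 14 genes of the ZIP family, 10 were listed. The 7 listed genes not described so far had log2 fold changes from -0.16 to 0.58 with a median of 0.09. Slc39a7 (ZIP7, which releases zinc from the endoplasmic reticulum) was the most abundant, at 93.2 RPKM in the AS library and 87.7 RPKM in the vehicle library. Slc39a1 followed with 19.3 and 19.6 RPKM. Slc39a4, the intestinal importer ZIP4, named after its values were seen, had 6.39 and 4.24 RPKM and a log2 fold change of 0.58, just short of 1.5-fold on this scale. Slc39a2, Slc39a5, Slc39a8 and Slc39a12 were not listed.

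Mtf1 itself was level. The gene (ENSMUSG00000028890.13, chromosome 4 from 124802104 to 124849800, plus strand) had 495 reads and an RPKM of 1.24 with AS, and 582 reads and an RPKM of 1.29 with the vehicle. The ratio of 0.962 had a counting interval from 0.852 to 1.09, so no difference was detectable at this depth. The table measures the mRNA of this factor and not its activity.

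**Figure D3:**
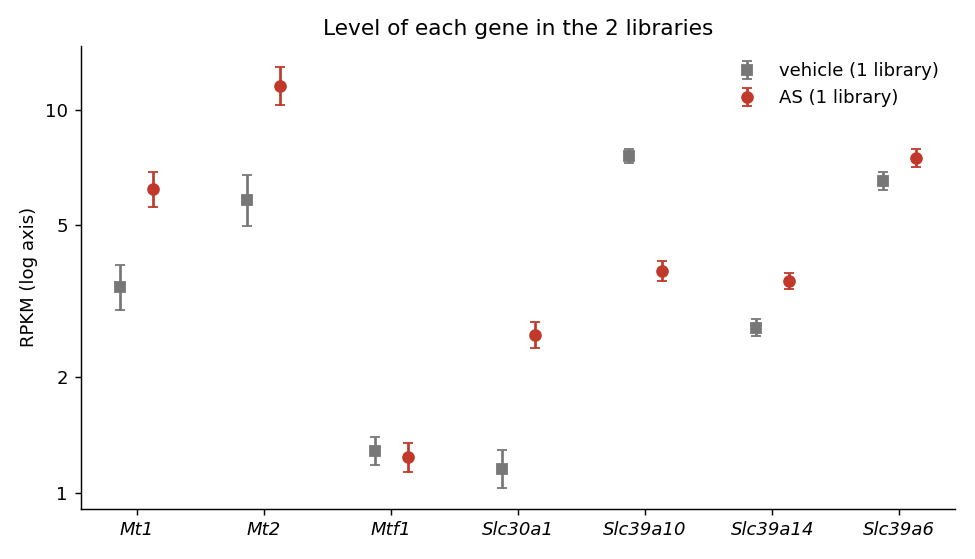
RPKM (vertical log axis) of the 7 genes in the vehicle library (grey squares) and the AS library (red circles), with exact 95% Poisson intervals of the reads as bars. The intervals of the libraries are apart for Mt1, Mt2, Slc30a1, Slc39a10, Slc39a14 and Slc39a6 and overlap for Mtf1. Such intervals can part at small ratios, as for Slc39a6 (1.15-fold). The share of all genes with parted intervals was not computed, so the number here is not a trait of these genes.

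The order of the levels differed between the libraries and also depended on the length used. On the deposited RPKM with the vehicle, Slc39a10 (7.60 RPKM) was followed by Slc39a6, Mt2, Mt1, Slc39a14, Mtf1 and Slc30a1 (1.16 RPKM). In that order the counting intervals of Slc39a6 (6.17 to 6.87) and Mt2 (4.99 to 6.76) overlapped, as did those of Mtf1 (1.18 to 1.39) and Slc30a1 (1.03 to 1.29). On the same scale with AS, Mt2 (11.6 RPKM) was followed by Slc39a6, Mt1, Slc39a10, Slc39a14, Slc30a1 and Mtf1 (1.24 RPKM). There the intervals of Slc39a10 (3.58 to 4.04) and Slc39a14 (3.41 to 3.75) overlapped. Over the longest principal transcript, the order with the vehicle was Slc39a10 (8.42 RPKM), Mt1 (7.81), Slc39a6 (6.83), Mt2 (6.70), Slc39a14 (5.78), Mtf1 (1.5) and Slc30a1 (1.16). With AS it was Mt1 (14.1 RPKM), Mt2 (13.3), Slc39a6 (7.88), Slc39a14 (7.66), Slc39a10 (4.22), Slc30a1 (2.58) and Mtf1 (1.44). On both scales Slc39a10 was first with the vehicle and a metallothionein gene was first with AS. Counting intervals were not computed over the principal transcript, so the order of close values there, such as 8.42 and 7.81 RPKM with the vehicle, cannot be taken as resolved. On the deposited scale Mt2 stood above 70.6% of the genes of the table with AS and above 54.9% with the vehicle.

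A list of MTF1 and 10 genes known to respond to it or to be bound by it was set against the table, and 11 of 11 were listed. Outside the 7 genes it held Gclc, Slc40a1, Prnp, Csrp1, Pgf and Ndrg1, of which 1 was called higher, 2 were higher by more than 1.5-fold and 0 were lower by as much, with a median log2 fold change of 0.03. Over all genes these shares were 0.662%, 3.56% and 2.01%. Gclc, the catalytic subunit of the enzyme that starts glutathione synthesis, was at 12.3 RPKM in the AS library and 5.33 RPKM in the vehicle library, a log2 fold change of 1.19. Slc40a1, the iron exporter ferroportin, had 0.767 and 0.433 RPKM and a log2 fold change of 0.70. Ndrg1, the most abundant of them, had 61.7 and 77.3 RPKM and a log2 fold change of -0.33. Csrp1 had 31.0 and 31.8 RPKM and Prnp 16.7 and 15.6 RPKM. Of all 11 genes of this list, 6 were higher with AS and 5 were lower. The list includes Slc39a10, which MTF1 is known to hold down, and whether MTF1 acted on any of these genes was not tested.

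Genes of copper handling and of other divalent metals had median log2 fold changes near that of all genes. The lowest of them was Atox1, at -0.51, number 416 from the bottom of all genes. Of 11 copper genes 10 were listed, and 0 were beyond 1.5-fold in either direction (3.56% of all genes were higher and 2.01% lower by as much), with a median log2 fold change of 0.01 and a range from -0.51 to 0.25. The most abundant were Sod1, the copper and zinc superoxide dismutase, with 77.6 RPKM with AS and 72.9 with the vehicle, Atox1, a copper chaperone, with 21.1 and 30.1 RPKM, and Cox17, which carries copper to cytochrome oxidase, with 25.0 and 29.0 RPKM. Of the other divalent metal transporters, 5 besides Slc39a14 were listed, and 0 were beyond 1.5-fold. Their median was 0.14, and the most abundant were Atp2c2, with 16.8 and 13.3 RPKM, Atp2c1, with 5.32 and 4.94 RPKM, and Slc41a1, with 2.47 and 2.21 RPKM.

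**Figure D4:**
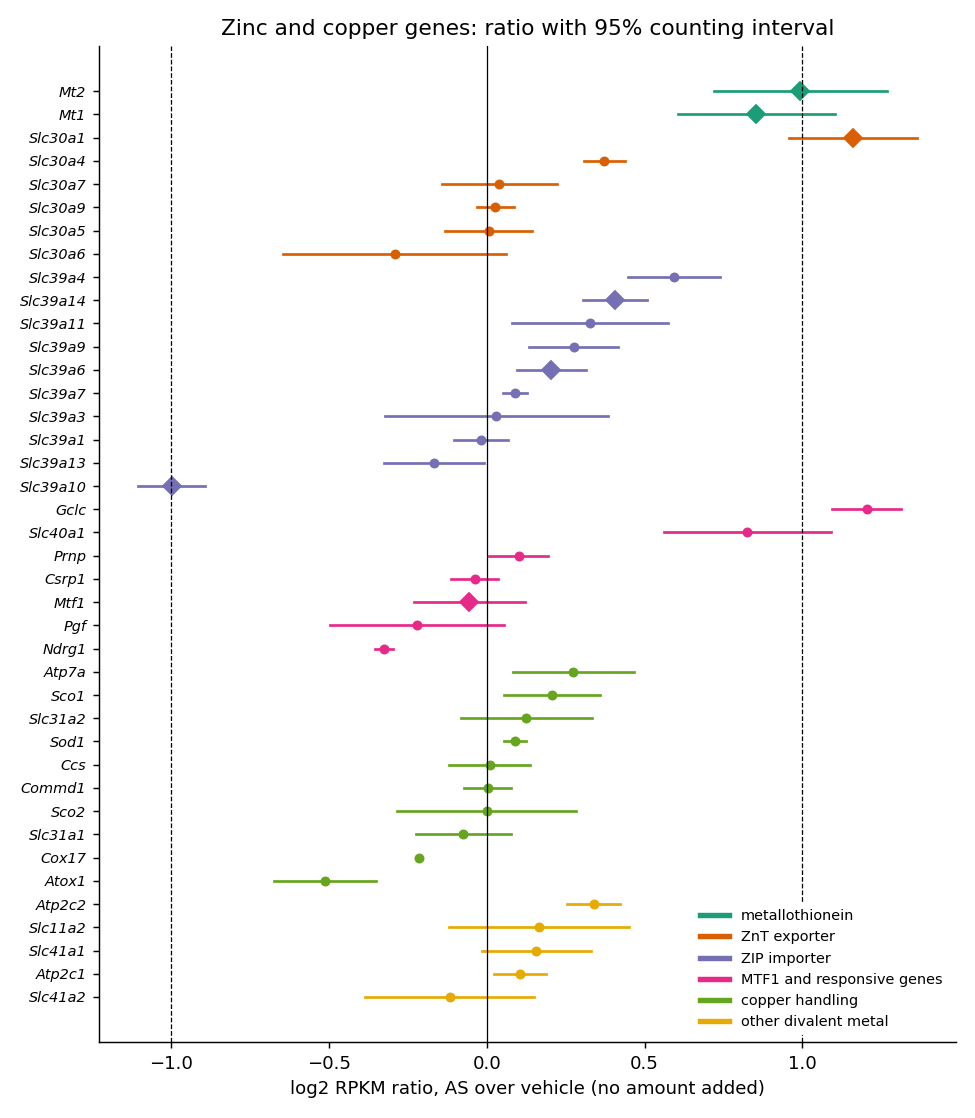
The log2 RPKM ratio of AS over vehicle (horizontal axis, no amount added) is shown for the 40 listed zinc, copper and related genes, coloured by list, with 95% Clopper-Pearson intervals of the reads as lines and the 7 genes described here as diamonds. Cox17 has no interval, since whole reads were not recovered for it. Slc30a1 and Gclc lie beyond 1, Slc39a10 lies at the lower dashed line, and most of the remaining genes lie near 0.

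With 2 libraries a pattern is a single difference, so likeness could be measured only as the distance in log2 fold change among genes within 2-fold in mean RPKM. By that measure Gm20684 (0.84), Gm56155 (0.84) and Mfap3l (0.84) were closest to Mt1 among 5092 genes. Mir5133 (0.99), Xpot (1.01) and Rin1 (0.95) were closest to Mt2 among 4615 genes.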

How the data were processed

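RNA-sequencing gave 1 library of 4T1 cells under AS and 1 under the vehicle. The authors deposited 1 table with the RPKM of each library and with their own log2 fold change, mean log2 CPM, p-value and FDR per gene, which were not used. The submitters' processing notes name fastp (0.23.4), STAR (2.5.3a), featureCounts and the build GRCh38, a human build. The annotation, the use of strand in counting and the filter on low genes are not given in the sources used here. Each RPKM times the exon length in GENCODE M21 (mouse, GRCm38) was a whole number of reads, within 0.01 reads, for 94.2% of 13502 symbols that have 1 entry in that annotation, once a total per library was found. The lowest mean of a recovered gene was 31.0 reads and no gene was at 0, so the table had been filtered. Reads were recovered for all 7 genes described. Fold changes are log2 of RPKM plus 0.1, which understates the change of low genes, and those beyond 1 were called, without a test. Intervals are exact (Clopper-Pearson for ratios and shares, Poisson for levels, 95%), and those of ratios have no amount added.

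The genes, the lists and the search for response elements were chosen with earlier results of these data known. Named besides the 7 genes were the genes of the lists past either fold threshold, the 3 most abundant of each list in the vehicle library, and the 3 genes most like Mt1 and Mt2. Other names are said to have been chosen after their values were seen, or are neighbours or overlapping entries. The computations ran in Python 3.11.15 and were tested on simulated data.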

Additional observations from a re-analysis of the deposited data

How the results depend on the processing

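With 1 library per group no replicate could be left out and no paired analysis was possible. The 7 log2 fold changes were recomputed with 0 or 1 RPKM added, with the median of all genes set to 0, with TMM scaling of the recovered reads (a shift of 0.07), and with upper-quartile scaling. Of these 35 values, 0 changed sign and 2 moved by more than counting error, those of Slc30a1 (0.73) and Slc39a10 (-0.84) with 1 RPKM added. Mt1 ranged from 0.70 to 0.85 and Mt2 from 0.88 to 0.99, so neither passed 1 in any of them. The calls sat close to the threshold. With 1 RPKM added 0 of the 7 genes and 1 listed zinc or copper gene were higher, against 1 and 2 as reported. With each of the 3 alternative scalings 1 of the 7, Slc39a10, was lower, which also made 1 gene of the lists lower. At 1.5-fold 3 of the 7 and 5 genes of the lists were higher and 1 of each was lower. A minimum mean of 1 RPKM leaves the fold change of a gene as it is and bears only on the counts. Over all genes, 94 were called higher and 44 lower. These were 161 and 66 with 0 RPKM added, 38 and 16 with 1 RPKM added, 505 and 286 at 1.5-fold, and 75 and 57 with the median of all genes set to 0. Counting error limits the metallothioneins most, with 174 to 348 reads per gene and library, and the spread between dishes was not measured.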

Other observations

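On the opposite strand of Mtf1, 1110065P20Rik shares 721 of its 8907 exon bases and was listed with 84 reads with AS and 72 with the vehicle, against 495 and 582 for Mtf1. Within 150 kb of the start of Mtf1, 9 genes were listed, and 3 of them were higher by more than 1.5-fold, as were 3.56% of all genes. These were Gm12915 with a log2 fold change of 0.80, 9930104L06Rik with 0.75 and Inpp5b, a phosphoinositide phosphatase gene, with 0.61, all named after their values were seen. Near Slc39a14, 4 genes were listed within the same distance and 0 of them were beyond 1.5-fold.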
